A study of Xenopus tropicalis with 26 samples.

Results

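Transcripts whose level fell from stage 6 to stage 8 in wildtype were followed in embryos of the frog Xenopus tropicalis with altered E2f1 or Cdkn1a. The group was chosen by its levels in wildtype: a mean of at least 20 CPM (counts scaled to a common library size, here by library total) at stage 6, and at stage 8 a mean of at most 50% of that. Of the 28778 genes in the table, 6835 reached 20 CPM at stage 6, and 73 met both levels. A list of gene names and name prefixes to be left out, mostly well-known maternal and cell cycle genes and large families, removed 7: cks2, top2a, dnmt1, grip2, fbxo43, nanos1 and cdca3. The remaining 66 genes are called stored transcripts here, though no egg was sampled and neither storage nor removal was measured. Of these, 57 carry a gene symbol and 9 only a locus number, and all 66 passed the filter on low counts that left 12883 genes to test.

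The early frog embryo divides rapidly on messenger RNA and protein laid down in the egg, and strong transcription of its own genome begins around the mid-blastula. Stored messages are cleared over this period, partly by shortening of their poly(A) tails and partly by decay. E2f1 is a transcription factor that binds promoters of cell cycle and DNA replication genes, and Cdkn1a (p21) inhibits cyclin-dependent kinases.

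Poly(A) RNA of embryos was sequenced in 26 stranded libraries, 2 in each of 13 groups, so that n = 2 for every mean ± SD given here. At stages 7 and 8 there were 5 injected groups: an antisense morpholino oligonucleotide (MO) against E2f1 with E2f1 mRNA, the MO with mRNA of an E2f1 mutant called deltaDBD, whose name speaks of a missing DNA-binding domain, the MO with Cdkn1a mRNA, the MO alone, and Cdkn1a mRNA alone. Wildtype embryos that received no treatment were collected at stages 6, 7 and 8. No control MO or control mRNA is among the samples used here, so in any comparison with wildtype the reagent and the injection cannot be told apart. Whether paired libraries stem from different clutches is not stated in the labels. All p-values therefore rest on library-to-library spread that could be purely technical. In poly(A) RNA of whole embryos, a lower amount of a transcript, a shorter poly(A) tail and a smaller share of cells holding it cannot be told apart. The labels give time only as a stage, so a treatment effect cannot be told apart from a difference in developmental pace or collection time.

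Libraries held 14071614 to 19032710 counted fragments. Injected messages were present where the labels place them. At stage 7, e2f1 averaged 3013 ± 36.2 CPM with MO and E2f1 mRNA and 2113 ± 44.6 CPM with MO and deltaDBD mRNA, against 426 ± 16.9 CPM with the MO alone. At the same stage cdkn1a averaged 298 ± 7.78 CPM with Cdkn1a mRNA, against 3.65 ± 0.359 CPM in wildtype. The e2f1 message does not check the knockdown, since the labels do not say how the MO acts. Markers of other material were low: in any library, 11 ovarian follicle genes summed to at most 0.813 CPM, 9 liver and blood genes to at most 0.486 CPM and 12 genes of differentiated tissue to at most 6.29 CPM. The 5 testis genes summed to 61.6 to 101 CPM, most of it odf2. The stage 8 MO pair stood apart, with a chi-square per degree of freedom between its libraries of 13.1, against 1.83 to 2.32 in the other pairs. Of the pair, replicate 2 lay farther from the other stage 8 libraries, with a median SD of log2 differences of 0.211, against 0.137 for replicate 1. Most counts of calls that rest on that pair are given with each of its libraries left out. Those without replicate 1 rest on the more distant replicate 2 alone.

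In wildtype the 66 transcripts stood at a median of 57.3% of their stage 6 level at stage 7 and 36.5% at stage 8. These levels, and all below unless stated, are CPM after TMM scaling (trimmed mean of M-values), whereas the choice of genes used library totals. Wildtype TMM factors were 0.872 and 0.881 at stage 6, 0.982 and 0.985 at stage 7, and 1.03 in both libraries at stage 8. The shares left, and the part of the fall reached by stage 7, depend on this scaling. Summed over the 66, stage 6 libraries held 15274 ± 75.1 CPM, stage 7 libraries 8751 ± 24.5 CPM and stage 8 libraries 5345 ± 141 CPM. The stage 6 and stage 8 levels chose the genes and are a description, with no test. All 66 were lower at stage 7 than at stage 6, by log2 differences of −1.22 to −0.50, and lower again at stage 8, by −1.39 to −0.28. Depending on the gene, 40.0 to 77.3% of the log2 difference between stages 6 and 8 had been reached by stage 7.

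The lowest remainder was that of plbd2, a lysosomal phospholipase B-like protein (chromosome 1, 146217951 to 146234921, minus strand, in the file's v10 build). Its libraries gave 145.9 and 150.3 CPM at stage 6. Stage 7 gave 68.2 and 58.6 CPM, and stage 8 gave 24.8 and 23.6 CPM, which left 16.3% of its stage 6 level. Next came iqgap3, a scaffold of the actin cytoskeleton (20.7% left), melk, a kinase abundant in oocytes and embryos (20.8%), and rab11a, a small GTPase of recycling endosomes (24.6%). At the other end btg4, known in mouse for recruiting the deadenylase that clears oocyte messages, kept 42.6%. Just inside the limit on the share left, in CPM by library total, were btg4 with 285.9 CPM at stage 6 and 142.9 CPM at stage 8, then ccni2 (49.9% left) and selenop1 (49.6%). Just outside were smg1 (164.3 and 82.2 CPM), drosha (50.4%) and enc1 (50.6%). Just inside the limit on stage 6 level were lrp12 (21.4 CPM), vps26b (22.4 CPM) and arl6ip1 (23.7 CPM), and just outside were per1 (19.8 CPM), rrnad1 (18.8 CPM) and grm7 (17.2 CPM).

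The group is mixed in function, size and place. Per kilobase of exon, the most abundant at stage 6 were zfp36l2.2 with 1021 CPM per kb, h2ac1, a histone H2A, with 887 CPM per kb, and btg4 with 368.3 CPM per kb, while zswim8 was lowest with 5.39 CPM per kb. The median was 48.2 CPM per kb, against 30.4 CPM per kb for the 6769 other genes at 20 CPM or more at stage 6. Median exon length was 3182 bases, against 3021 bases in those other genes. The genes lie on all 10 chromosomes and 1 unplaced scaffold, with the most, 10, on chromosome 3 (15.2% of the 66, against 12.8% of all genes at that level). By known role, 17 act in cell division, 11 in signalling, 7 in RNA regulation, 6 in metabolism, 6 in trafficking or matrix, 3 in protein turnover, 2 in membrane transport and 1 in chromatin, while 4 were given no role and 9 have only a locus number. Of these, 10 in cell division, 7 in signalling, 3 in metabolism, 2 in RNA regulation and 2 in protein turnover were placed after the values were seen. The 4 with no role were also set then.

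**Figure D1:**
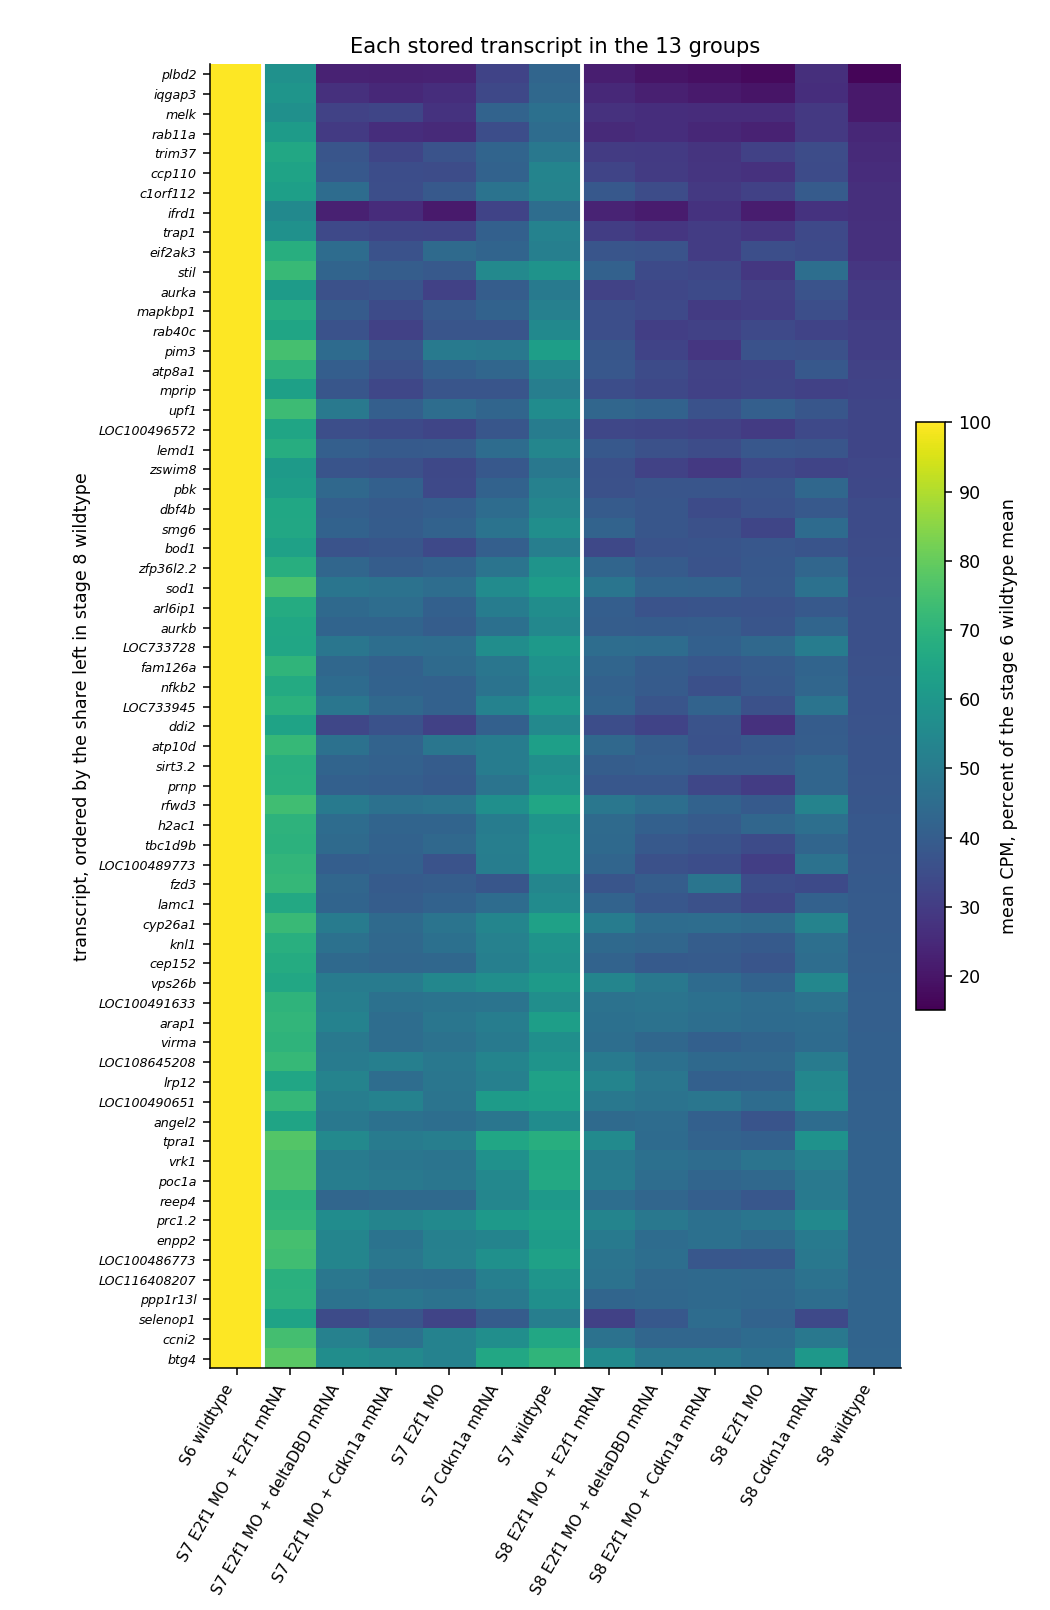
Level of each of the 66 transcripts (down the page, ordered by the share left in stage 8 wildtype) in each of the 13 groups (across), as a percent of its stage 6 wildtype mean. Stage 7 embryos with MO and E2f1 mRNA keep the highest shares of any group after stage 6, with a median of 68.5%.

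At stage 7, MO embryos held less of almost every stored transcript than wildtype embryos. Of the 66, 64 fell at an adjusted p under 0.05 (edgeR quasi-likelihood test, Benjamini-Hochberg over all tested genes). Across all tested genes 12.5% were called lower in this comparison, and across genes at 20 CPM or more at stage 6 it was 21.7%. The median log2 fold change was −0.45 (range −1.10 to −0.18), against −0.03 in the 6769 other genes of that level. The median remainder was 41.8% of the stage 6 level in MO embryos and 57.3% in wildtype, and the summed level was 6455 ± 143 CPM in MO embryos, against 8751 ± 24.5 CPM in wildtype. The 2 not called were pim3 (−0.33), a kinase, and vps26b (−0.18), a retromer subunit. Leaving out any 1 library gave 58 to 59 falls.

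E2f1 mRNA injected with the MO went with higher levels of the whole group. Against the MO with deltaDBD mRNA, all 66 rose at stage 7 (22.6% of all tested genes were called higher, and 39.5% of genes at 20 CPM or more at stage 6). The median log2 fold change was 0.64 (range 0.29 to 1.32), against 0.07 in the other genes of that level. The summed level was 10512 ± 105 CPM with E2f1 mRNA, against 6701 ± 26.3 CPM with deltaDBD mRNA. Against the MO alone 65 rose (background 22.4%) with a median of 0.70, vps26b being the exception at 0.28. Of the 6769 other genes at 20 CPM or more at stage 6, 2564 rose in that comparison. deltaDBD mRNA gave no called difference from the MO alone: no stored transcript was called in either direction by edgeR or by DESeq2 (background 0.0155% higher). The estimates leaned upward: 56 of 66 were positive, with a median of 0.08, against −0.007 in the other genes of that level. At an unadjusted p under 0.05, 8 were higher and 0 lower, and the share of all tested genes at that cutoff is not given here. The smallest p of deltaDBD mRNA over the MO was that of stil, at 0.13 ± 0.037 (SE, edgeR adjusted p = 0.909). Leaving out 1 library left 63 to 66 of these rises. Among the genes named, lrp12 lost the call: its log2 fold change of 0.29 became 0.33 and 0.26 without deltaDBD replicate 1 or 2 and 0.16 without E2f1 mRNA replicate 2.

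TMM factors moved with these groups, being 0.947 in both stage 7 libraries with E2f1 mRNA, against 1.02 and 1.01 in those with deltaDBD mRNA. With library totals in place of TMM, the median of all tested genes in this comparison moved to −0.12 and that of the stored transcripts to 0.54.

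With E2f1 mRNA the stored transcripts also exceeded uninjected wildtype at stage 7. Of the 66, 43 rose (background 6.82% higher), and all 66 had a positive log2 fold change, with a median of 0.25. The largest were rab11a at 0.46 ± 0.098 (SE, edgeR adjusted p = 0.00206), iqgap3 at 0.44 ± 0.049 (1.18e-07) and plbd2 at 0.43 ± 0.066 (3.18e-05). The count was 26 without E2f1 mRNA replicate 2 and also 26 without wildtype replicate 2. The call of rab11a ended without E2f1 mRNA replicate 1 (0.39) or wildtype replicate 1 (0.35). No wildtype embryos with E2f1 mRNA alone are among the samples used here. The comparisons at stage 7 share libraries (the MO pair, the wildtype pair or the E2f1 mRNA pair), so their counts are not independent of each other.

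**Figure D2:**
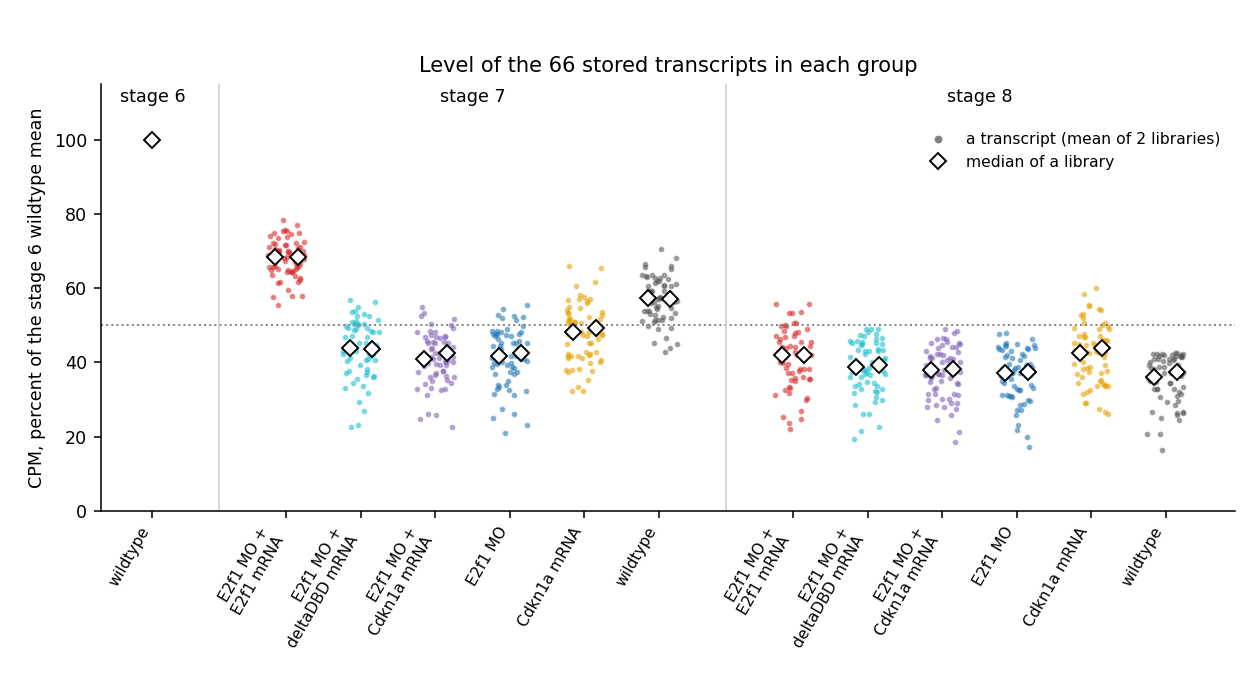
Level of each of the 66 transcripts as a percent of its stage 6 wildtype mean (dots, mean of 2 libraries) in each group, with the median of each library (diamonds) and a dotted line at 50%. At stage 7 the library medians are 68.5% with MO and E2f1 mRNA, 41.9 and 42.6% with the MO alone, and 57.4 and 57.1% in wildtype.

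Cell division genes made up the largest role. Of its 17 genes, 10 were placed there after the values were seen. All 17 fell in stage 7 MO embryos relative to wildtype (median −0.47) and all 17 rose with E2f1 relative to deltaDBD mRNA (median 0.63). The medians of all 66 were close to these, at −0.45 and 0.64. The wider list of cell cycle and DNA replication genes, 366 tested and 7 of them stored transcripts, had 90 falls and 53 rises in MO embryos, and 131 rises and 96 falls with E2f1 over deltaDBD mRNA. Of its 290 genes at 20 CPM or more at stage 6, 30.3% fell in MO embryos and 44.1% rose with E2f1 mRNA, beside 21.7 and 39.5% of all genes at that level. stil, needed for centriole duplication, had 472 and 478 CPM with MO and E2f1 mRNA and 287 and 269 CPM with MO and deltaDBD mRNA. With the MO alone stil had 250 and 260 CPM, against 387.3 and 386.5 CPM in wildtype. No E2f1 mRNA library overlapped any other stage 7 group, and both MO libraries lay below both wildtype libraries. Its log2 fold changes were 0.77 ± 0.036 for E2f1 over deltaDBD mRNA (SE, edgeR adjusted p = 9.1e-18) and −0.60 ± 0.036 for MO over wildtype (9.21e-15).

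Aurora kinase A (aurka), which acts at centrosomes and spindle poles, had 234 and 249 CPM with E2f1 mRNA and 141.6 and 141.9 CPM with deltaDBD mRNA. It had 117 and 130.3 CPM with the MO alone, against 195 and 196 CPM in wildtype. Aurora kinase B (aurkb), of the chromosomal passenger complex, had 289.5 and 297.3 CPM with E2f1 mRNA and 192 and 186 CPM with deltaDBD mRNA. These differences came to 0.77 ± 0.075 for aurka and 0.63 ± 0.061 for aurkb (log2, SE, edgeR adjusted p = 4.85e-08 and 5.04e-09). In MO relative to wildtype embryos they were −0.66 for aurka and −0.45 for aurkb. ccp110, which caps centrioles, fell by 0.61 on the log2 scale in MO embryos and rose by 0.75 with E2f1 over deltaDBD mRNA. dbf4b, an activator of the replication kinase Cdc7, fell by 0.42 and rose by 0.69 in the same comparisons.

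iqgap3 showed the same order with little spread. It had 269.9 and 269.8 CPM with E2f1 mRNA and 120.7 and 123.5 CPM with deltaDBD mRNA, and 116 and 121.6 CPM with the MO alone, against 195.9 and 201.8 CPM in wildtype. E2f1 mRNA libraries stood above all others of stage 7, and those of deltaDBD mRNA and of the MO alone overlapped. The log2 fold change was 1.14 ± 0.051 over deltaDBD mRNA (SE, edgeR adjusted p = 2.12e-18) and −0.74 ± 0.051 for MO over wildtype (2.2e-13). melk had 43.2 and 41.7 CPM with E2f1 mRNA, against 25.3 and 21.3 CPM with deltaDBD mRNA. The rise of melk was 0.87 on the log2 scale, and its fall in MO embryos was −0.75.

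The 7 genes of RNA regulation all fell in MO embryos (median −0.31) and all rose with E2f1 over deltaDBD mRNA (median 0.57). The wider list of genes for RNA binding, storage and decay, 403 tested and 4 of them stored transcripts, had a median log2 fold change of −0.04 in MO embryos, and 157 rises and 105 falls with E2f1 over deltaDBD mRNA. Of its 325 genes at 20 CPM or more at stage 6, 33.2% fell in MO embryos and 47.4% rose with E2f1 mRNA, beside the same 21.7 and 39.5%. zfp36l2.2, a zinc finger protein that binds AU-rich elements and promotes message decay, had 838 and 841 CPM with E2f1 mRNA and 527 and 530 CPM with deltaDBD mRNA. With the MO alone it had 501 and 522 CPM, against 732 and 715 CPM in wildtype. The groups did not overlap, and the fold changes were 0.67 ± 0.035 and −0.50 ± 0.034 (log2, SE, edgeR adjusted p = 1.23e-16 and 2.45e-13). Nonsense-mediated decay was represented by its helicase upf1, at −0.31 in MO over wildtype and 0.57 in E2f1 over deltaDBD mRNA, and its endonuclease smg6, at −0.45 and 0.66.

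btg4 had 265.4 and 245.6 CPM with E2f1 mRNA and 187.5 and 182.6 CPM with deltaDBD mRNA. It had 164 and 179 CPM with the MO alone, against 226.5 and 234.7 CPM in wildtype. Its groups did not overlap in either comparison, and the differences were 0.47 ± 0.11 and −0.43 ± 0.11 (log2, SE, edgeR adjusted p = 0.00255 and 0.00943). The call of btg4 in MO embryos ended without MO replicate 1 (−0.36) or wildtype replicate 2 (−0.40). eif2ak3 (PERK), a kinase that slows translation under stress of the endoplasmic reticulum, had one of the smallest falls in MO embryos, −0.22 ± 0.042 (edgeR adjusted p = 0.000232), and rose by 0.60 with E2f1 over deltaDBD mRNA.

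Among metabolic genes all 6 fell in MO embryos (median −0.59) and all 6 rose with E2f1 over deltaDBD mRNA (median 0.74). Of the 6, 3 were placed there after the values were seen. Of all 66, 64 fell and 66 rose, with medians of −0.45 and 0.64, so such counts are not particular to a role. plbd2 had 85.6 and 86.0 CPM with E2f1 mRNA and 35.2 and 33.4 CPM with deltaDBD mRNA. It had 34.68 and 33.99 CPM with the MO alone, against 68.2 and 58.6 CPM in wildtype. The libraries with deltaDBD mRNA and with the MO alone overlapped, and all lay under both wildtype libraries. The fold change was 1.32 ± 0.072 over deltaDBD mRNA, the largest among the 66 (SE, edgeR adjusted p = 3.91e-16), and −0.89 ± 0.072 in MO over wildtype (1.33e-11). sod1, the cytosolic superoxide dismutase, was at 0.65 and −0.45 in these comparisons, and cyp26a1, which degrades retinoic acid, at 0.52 and −0.41.

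The largest fall in MO embryos was that of ifrd1, a co-regulator of transcription. It was among the 7 genes placed with the 11 signalling genes after the values were seen. ifrd1 had 61.6 and 55.5 CPM with E2f1 mRNA and 23.1 and 24.9 CPM with deltaDBD mRNA. It had 22.1 and 22.4 CPM with the MO alone, against 45.9 and 49.7 CPM in wildtype. MO libraries thus held less than 50% of the wildtype level, and its fold change was −1.10 ± 0.078 (log2, SE, edgeR adjusted p = 5.1e-13). Over deltaDBD mRNA it rose by 1.29 ± 0.078 (5.59e-15). Of the 11, 10 fell in MO embryos (median −0.39) and 11 rose with E2f1 over deltaDBD mRNA (median 0.70). Of all 66, 64 fell and 66 rose, with medians of −0.45 and 0.64. The 11 include fzd3, a Wnt receptor, at −0.43 and 0.74, and mapkbp1, a scaffold of JNK signalling, at −0.43 and 0.79.

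Of the 6 trafficking and matrix genes 5 fell in MO embryos and all 6 rose with E2f1 over deltaDBD mRNA, beside 64 and 66 of all 66. rab11a had 37.6 and 34.3 CPM with E2f1 mRNA and 17.02 and 17.21 CPM with deltaDBD mRNA. It had 14.5 and 14.6 CPM with the MO alone, against 24.4 and 28.1 CPM in wildtype. Its fold changes were 1.07 ± 0.10 and −0.84 ± 0.11 (log2, SE, edgeR adjusted p = 4.33e-10 and 3.5e-07). lamc1, a laminin chain, was at 0.65 and −0.42. Among the rest, ddi2, a ubiquitin-dependent protease, fell by 0.81 in MO embryos and rose by 0.95 with E2f1 over deltaDBD mRNA, and the phospholipid flippases atp8a1 and atp10d fell by 0.41 and 0.38 and rose by 0.79 and 0.62. trim37, a ubiquitin ligase that restrains centriole assembly, fell by 0.41, and that call ended without MO replicate 2 (−0.33). The 9 genes with only a locus number all fell in MO embryos and all rose with E2f1 over deltaDBD mRNA, with medians of −0.40 and 0.50. The medians of all 66 were −0.45 and 0.64.

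**Figure D3:**
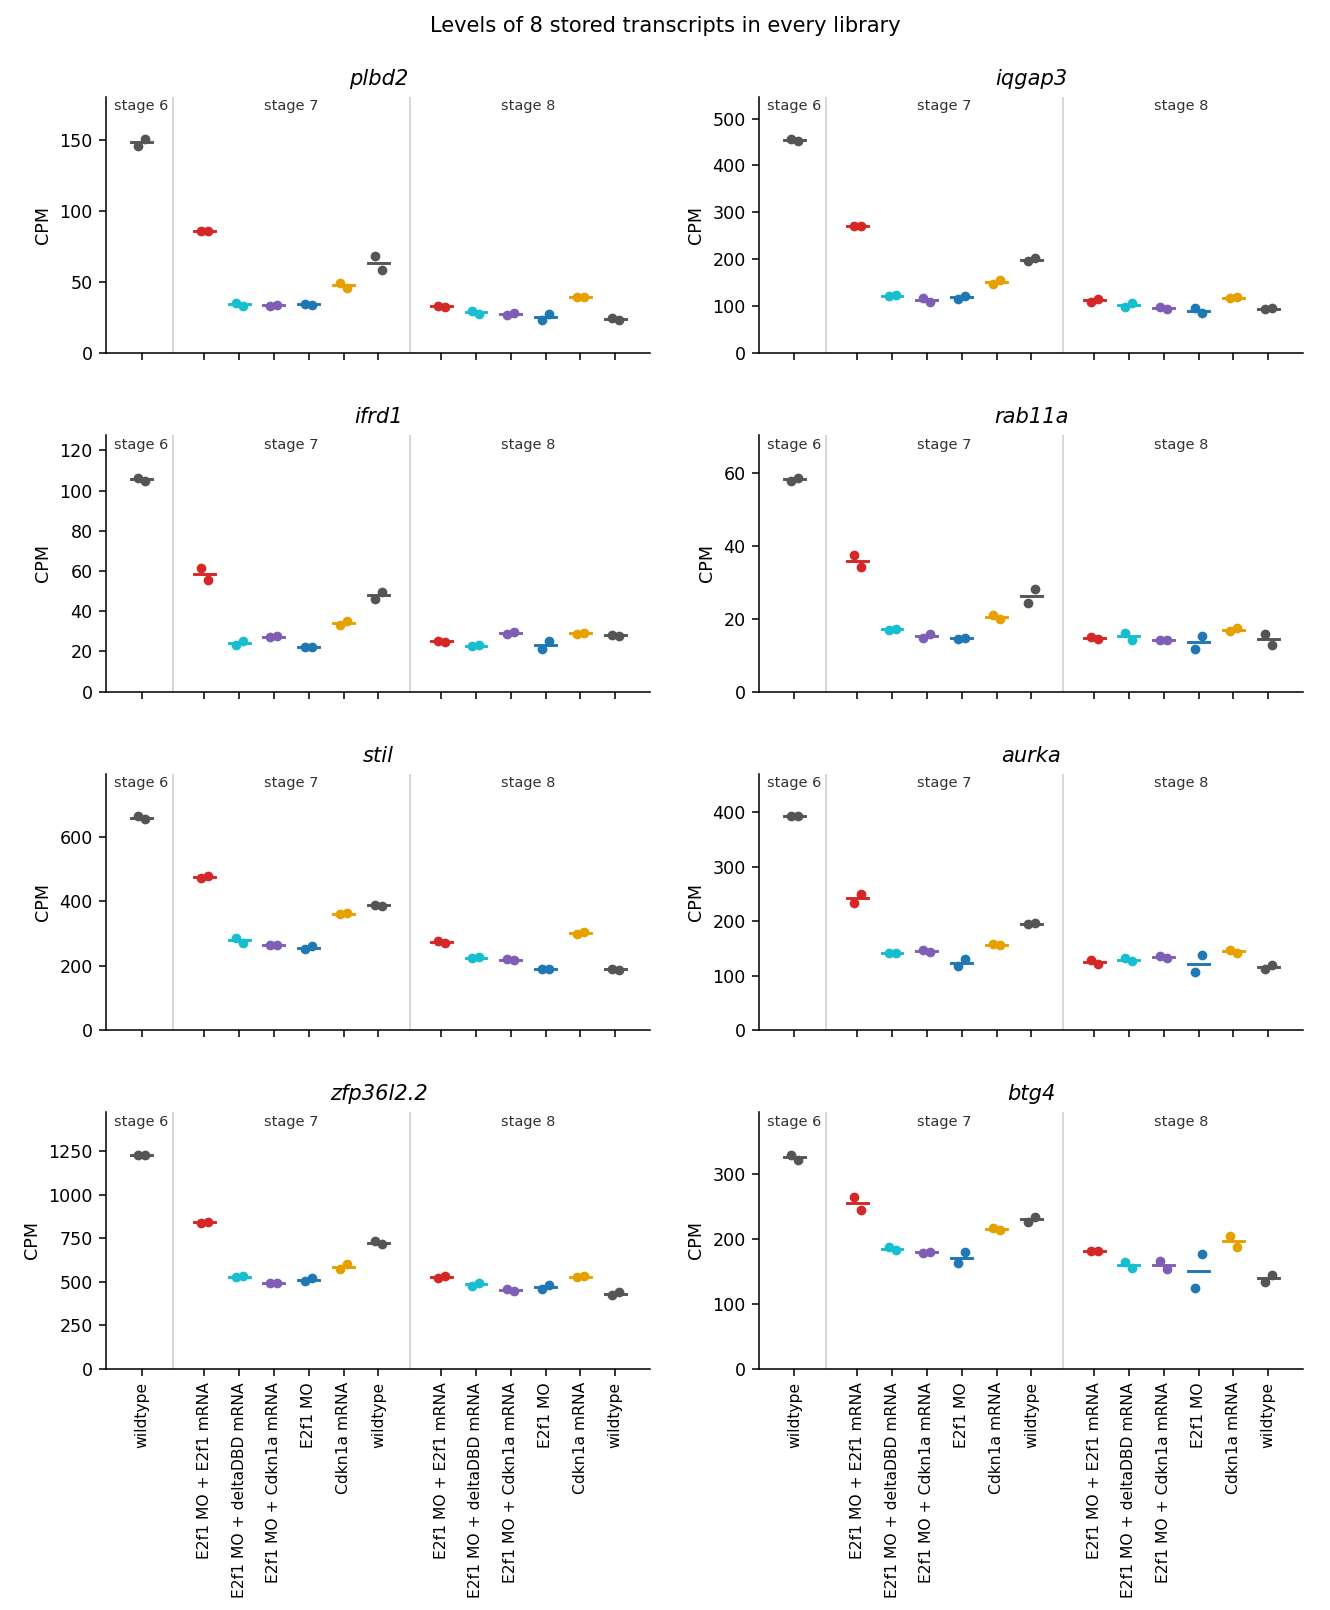
CPM of 8 stored transcripts in every library (dots, with bars at the mean of 2) by stage and group. In each panel the stage 7 libraries with MO and E2f1 mRNA lie above those with MO and deltaDBD mRNA, for plbd2 at 85.6 and 86.0 CPM against 35.2 and 33.4 CPM.

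Both responses were larger in transcripts with less left in wildtype, within the group and beyond it. All 73 genes that met the levels, the 7 left out by name included, are in this description. Of the 27 genes with up to 40% left at stage 8 (by library total), 96.3% fell in stage 7 MO embryos and 100% rose with E2f1 over deltaDBD mRNA, with median log2 fold changes of −0.61 and 0.79. Of the 46 genes with 40 to 50% left, the shares were 97.8 and 100%, with medians of −0.43 and 0.58. Among 1098 genes with 70 to 80% left they were 62.4 and 94.8%, and among 3653 genes with more than 100% left they were 2.57 and 3.31%. The limit at 50% therefore cuts a graded series: of 103 genes with 50 to 60% left, 78.6% fell in MO embryos and 99.0% rose with E2f1 mRNA.

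Across the 66 transcripts, the fold change of MO over wildtype and that of E2f1 over deltaDBD mRNA at stage 7 had Pearson r = −0.83 (Spearman rho = −0.73), and across the 6769 other genes r = −0.80. These compare 4 separate pairs of libraries, and are given as a description across genes, which are not independent replicates. The fold change of E2f1 over deltaDBD mRNA and the log2 difference between stages 8 and 6 in wildtype had r = −0.72 across the 66 and −0.95 across the others. The 66 span only part of the range of this wildtype measure, on which they were chosen.

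**Figure D4:**
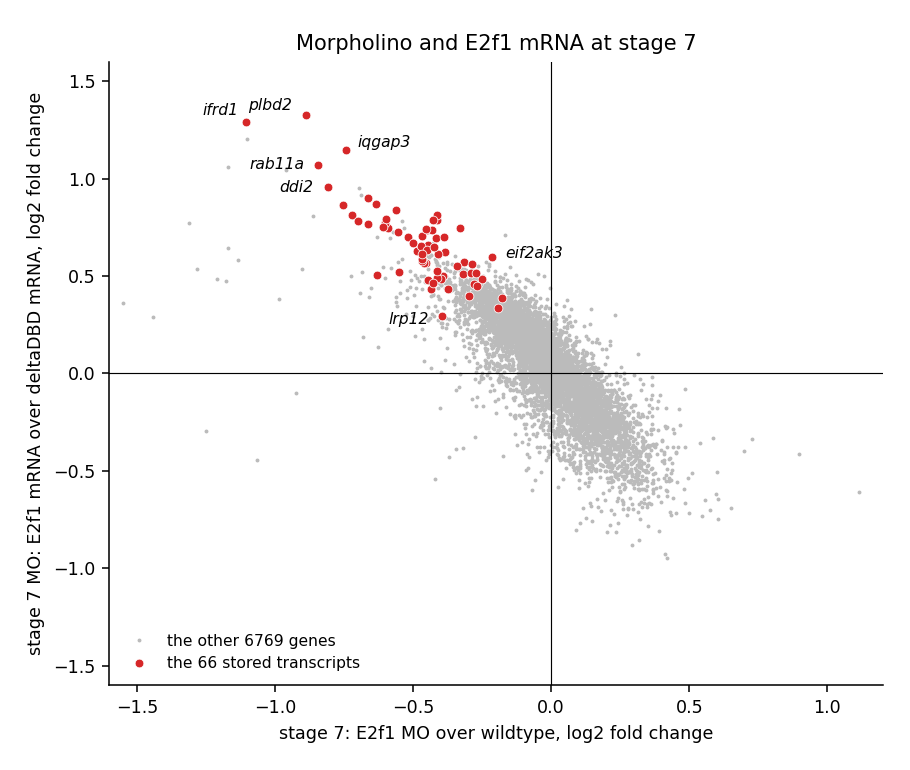
Log2 fold change at stage 7 of E2f1 over deltaDBD mRNA (y axis, both with MO) against that of MO over wildtype (x axis), for the 66 stored transcripts and the 6769 other genes at 20 CPM or more at stage 6. The stored transcripts all lie at negative x and positive y, from −1.10 to −0.18 and from 0.29 to 1.32.

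Cdkn1a mRNA alone also went with lower levels at stage 7. Of the 66, 38 fell relative to wildtype (background 2.82%), beside 314 of the 6769 other genes at 20 CPM or more at stage 6. The median log2 fold change of the 66 was −0.26. Their summed level was 7360 ± 159 CPM with Cdkn1a mRNA, against 8751 ± 24.5 CPM in wildtype. The count fell whichever wildtype or Cdkn1a mRNA library was left out, and each such fit leaves 1 library in a group. All 66 log2 fold changes were negative, from −0.56 to −0.03. ifrd1 had 32.9 and 35.1 CPM with Cdkn1a mRNA, against 45.9 and 49.7 CPM in wildtype, a change of −0.49 ± 0.075 (log2, SE, edgeR adjusted p = 0.000186). mprip, a myosin phosphatase partner, was at −0.45 ± 0.060 (2.2e-05). These 2 calls held without any 1 library. Those of rab40c (−0.56), fzd3 (−0.51) and ddi2 (−0.42) did not: without Cdkn1a mRNA replicate 1 the values were −0.50, −0.52 and −0.44. By role, 11 of 17 cell division genes, 7 of 11 signalling genes and 5 of 7 RNA regulation genes fell, beside 38 of all 66. Of these roles, 10, 7 and 2 genes were placed there after the values were seen. In trafficking or matrix 4 of 6 fell, in metabolism 3 of 6 and in protein turnover 1 of 3. Falls were also called in 2 of 2 membrane transport genes and 1 of 1 in chromatin. With only a locus number 3 of 9 fell, and with no role 1 of 4.

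Cdkn1a mRNA added to the MO changed little relative to the MO alone at stage 7. The summed level was 6248 ± 51.2 CPM with both, against 6455 ± 143 CPM with the MO alone, and 1 transcript was called lower (background 0.279%), eif2ak3 at −0.28 ± 0.043 (log2, SE, edgeR adjusted p = 5.96e-05). It had 274.7 and 287.3 CPM with MO and Cdkn1a mRNA, against 333.5 and 350.6 CPM with the MO alone. With only the libraries of stage 7 in the fit the count was 10, and the share of all tested genes in that fit is not given here. Relative to Cdkn1a mRNA alone, 38 of 66 fell with MO and Cdkn1a mRNA (background 2.57%), with a median of −0.25. That count was 21 and 20 without Cdkn1a mRNA replicate 1 or 2, and 24 and 20 without replicate 1 or 2 of the MO with Cdkn1a mRNA. The largest was plbd2, with 33.3 and 33.9 CPM with both reagents, against 49.5 and 45.9 CPM with Cdkn1a mRNA alone, a fold change of −0.51 ± 0.074 (edgeR adjusted p = 1.03e-05). stil was at −0.45 ± 0.036 (1.44e-11).

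The difference between the MO effect with and without Cdkn1a mRNA was itself tested at stage 7. In 65 of 66 transcripts the estimate was positive, with a median difference of 0.23 on the log2 scale. A positive estimate means that the MO effect was less negative when Cdkn1a mRNA was present. In 1 transcript that effect was itself above zero, at 0.06, and was not called. The difference had an unadjusted p under 0.05 in 44, and the share of all tested genes at that cutoff is not given here. Of the 65, 8 passed the test (background 0.675%). The largest was ifrd1 at 0.79 ± 0.11 (log2, SE, edgeR adjusted p = 3.61e-05), whose call held without any 1 library, followed by ddi2 at 0.64 ± 0.12 (0.0032) and aurka at 0.55 ± 0.11 (0.0108). The call of ddi2 ended without MO replicate 2 or without replicate 2 of the MO with Cdkn1a mRNA (0.50 each). That of aurka ended without any 1 of the 8 libraries except MO replicate 2 (0.47 to 0.57). The count was 3 without replicate 1 of Cdkn1a mRNA, of the MO or of wildtype, 5 without Cdkn1a mRNA replicate 2, and 5 and 4 without replicate 1 or 2 of the MO with Cdkn1a mRNA. With only stage 7 libraries in the fit it was 30, and the share of all tested genes in that fit is not given here.

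**Figure D5:**
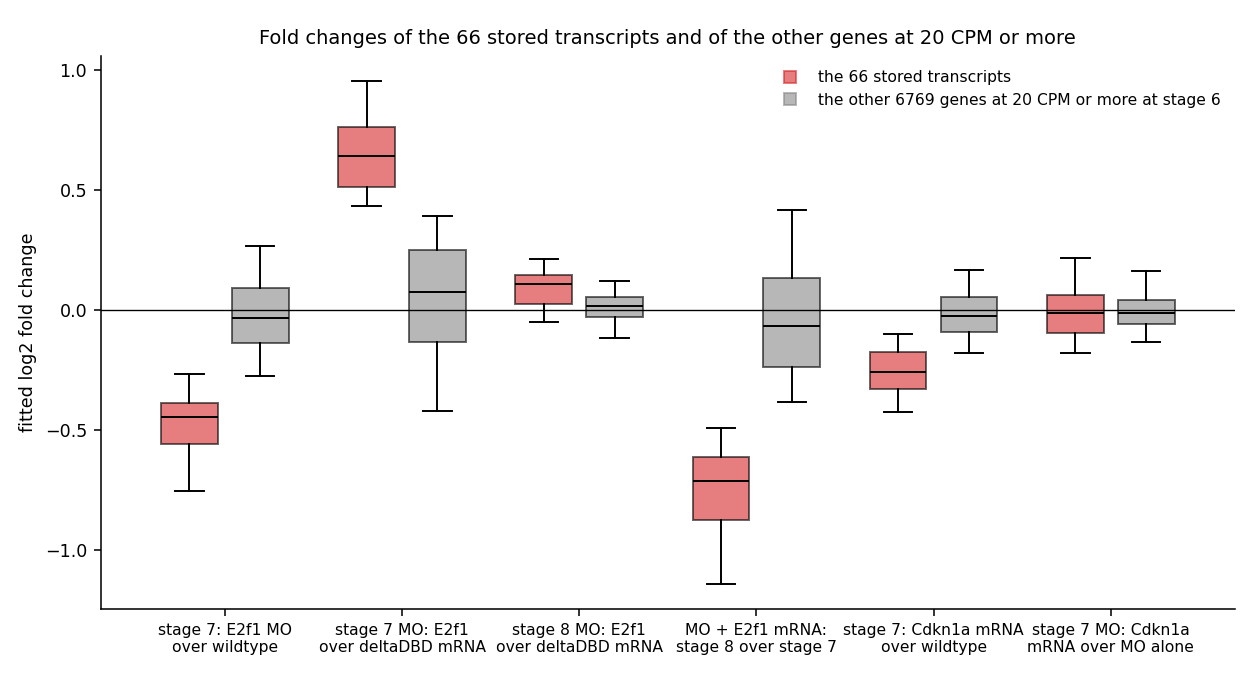
Log2 fold changes of the 66 stored transcripts (red, left of each pair) and the 6769 other genes at 20 CPM or more at stage 6 (grey) in 6 comparisons, with boxes at the quartiles and whiskers from the 5 to the 95 percentile. The stored transcripts have medians of −0.45 for MO over wildtype and 0.64 for E2f1 over deltaDBD mRNA at stage 7, and 0.11 for the second of these at stage 8.

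By stage 8 the injected groups had come close together. Median remainders were 42.1% of the stage 6 level with MO and E2f1 mRNA, 39.3% with MO and deltaDBD mRNA, 37.2% with MO and Cdkn1a mRNA, 37.7% with the MO alone and 42.9% with Cdkn1a mRNA, against 36.5% in wildtype. Stage 8 wildtype chose the genes, so no test was made against it. Between E2f1 and deltaDBD mRNA, where all 66 had risen at stage 7, the median was 0.11 at stage 8. At an unadjusted p under 0.05, 17 were higher and 1 lower, and the share of all tested genes at that cutoff is not given here. By adjusted p, 1 was called higher (background 0.295%). That one was stil, with 275 and 269 CPM with E2f1 mRNA, against 222 and 227 CPM with deltaDBD mRNA, a fold change of 0.28 ± 0.037 (log2, SE, edgeR adjusted p = 3.44e-06). plbd2, with the largest rise at stage 7, had 32.9 and 32.6 CPM with E2f1 mRNA, against 29.9 and 27.6 CPM with deltaDBD mRNA.

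Against the MO alone at stage 8, 20 of 66 rose with E2f1 mRNA (background 3.14%), with a median of 0.15. Of these, stil had 275 and 269 CPM with E2f1 mRNA, against 189.8 and 189.5 CPM with the MO alone (0.52 ± 0.037, edgeR adjusted p = 1.12e-12). The count was 10 and 8 without E2f1 mRNA replicate 1 or 2, 30 and 21 without MO replicate 1 or 2, and 10 with only stage 8 libraries in the fit. The calls of stil and smg6 (0.36) held without any 1 library, and that of plbd2 ended without E2f1 mRNA replicate 1 (0.34) or MO replicate 1 (0.24). With deltaDBD mRNA 2 rose (background 0.536%), stil at 0.25 ± 0.037 (edgeR adjusted p = 0.000246) and a locus-number gene, LOC100486773, at 0.25 ± 0.062 (0.0414). That count was 1 without deltaDBD replicate 1 or 2, and 19 and 7 without MO replicate 1 or 2.

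MO with Cdkn1a mRNA differed from the MO alone at stage 8 in 4 rises (background 1.13%) and 1 fall (0.683%). fzd3 was at 0.45, ddi2 at 0.43, ifrd1 at 0.34 and stil at 0.20, and eif2ak3 at −0.24 (log2). All 5 calls ended without replicate 1 of the MO with Cdkn1a mRNA, 3 were left without its replicate 2, and the count was 16 and 12 without MO replicate 1 or 2. Against Cdkn1a mRNA alone, 26 fell (background 1.71%) and 1 rose (2.33%). plbd2 had 26.79 and 27.98 CPM with both reagents, against 39.2 and 39.6 CPM with Cdkn1a mRNA alone (−0.52 ± 0.078, edgeR adjusted p = 1.73e-05), and fzd3, the one that rose, was at 0.49 ± 0.11 (0.00313). These 27 calls became 15 and 11 without Cdkn1a mRNA replicate 1 or 2, 12 without replicate 1 of the MO with Cdkn1a mRNA, and 12 with only stage 8 libraries in the fit. The call of fzd3 ended without Cdkn1a mRNA replicate 1 (0.47).

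Between stages 7 and 8 all 66 fell in embryos with MO and E2f1 mRNA (38.4% of genes at 20 CPM or more at stage 6 were called lower), with a median log2 change of −0.71 (range −1.39 to −0.29). The largest was plbd2, with 32.9 and 32.6 CPM at stage 8, against 85.6 and 86.0 CPM at stage 7 (−1.39 ± 0.071, edgeR adjusted p = 1.18e-16), followed by rab11a (−1.29) and iqgap3 (−1.27). The other injected groups, lower at stage 7, had these numbers of falls: 21 with the MO alone (background 2.25%, median −0.19), 21 with Cdkn1a mRNA (0.761%, −0.16), 8 with MO and deltaDBD mRNA (0.155%, −0.17) and 3 with MO and Cdkn1a mRNA (0.0931%, −0.14). Among the 6769 other genes at 20 CPM or more at stage 6, falls in these groups numbered 238, 71, 10 and 7, in that order. With MO and E2f1 mRNA 2557 of those other genes fell. stil was called lower with the MO alone (−0.43), with MO and deltaDBD mRNA (−0.31), with MO and Cdkn1a mRNA (−0.28) and with Cdkn1a mRNA (−0.26). melk was called lower with Cdkn1a mRNA (−0.53).

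These smaller counts moved when a library was left out, and each such fit leaves 1 library in a group. With the MO alone it was 11 without stage 7 replicate 2, and 31 and 20 without stage 8 replicate 1 or 2. With Cdkn1a mRNA it was 12 and 5 without stage 7 replicate 1 or 2, and 5 and 9 without stage 8 replicate 1 or 2. With deltaDBD mRNA it was 2 without either stage 7 library and 3 without either stage 8 library, and with MO and Cdkn1a mRNA it was 1 without stage 7 replicate 2 or stage 8 replicate 1. The calls of stil with the MO alone, with MO and deltaDBD mRNA and with MO and Cdkn1a mRNA held.

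The change in the E2f1 effect between the stages was tested directly. The log2 fold change of E2f1 over deltaDBD mRNA was lower at stage 8 than at stage 7 in 58 of 66 transcripts (23.5% of genes at 20 CPM or more at stage 6 were called in this direction), with a median change of −0.52 on the log2 scale and a negative estimate in all 66. The largest was selenop1, a selenium carrier, at −1.20 ± 0.19 (SE, edgeR adjusted p = 1.62e-05). It had 17.9 and 18.4 CPM with E2f1 mRNA, against 10.3 and 9.07 CPM with deltaDBD mRNA at stage 7, and 9.33 and 8.27 CPM with E2f1 mRNA, against 10.7 and 10.9 CPM with deltaDBD mRNA at stage 8. The order of its groups thus turned round between the stages, though at stage 8 the difference was not called. For MO with Cdkn1a mRNA over the MO alone, the corresponding change was called in none of the 66 by edgeR or by DESeq2 (background 0.00776% higher). An unadjusted p under 0.05 was found in 7, and the share of all tested genes at that cutoff is not given here. Without stage 8 MO replicate 1, which leaves the more distant replicate 2 alone, that count of 0 became 17.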

How the data were processed

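Labels gave each library's stage, injection and replicate number, and its column in the single table of the series was found by name. Per the submitters' processing notes, fastp, STAR 2.7.0e and featureCounts 2.0.1 were used; per the file headers, fragments were counted per gene, reverse-stranded, with both mates mapped and multi-mapping fragments left out. The deposited values are raw gene counts and entered the tests unchanged, with the file's own v10 coordinates (1-based) and names. The depth was 14071614 to 19032710 fragments.

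One edgeR 4.0.16 quasi-likelihood model (R 4.3.3, robust, TMM, filterByExpr) with a mean for each of 13 groups covered all 26 libraries and 12883 genes, with 13 residual degrees of freedom and a common biological coefficient of variation of 3.93%. Each of 21 contrasts avoided the stage 6 and stage 8 wildtype libraries that chose the genes. Benjamini-Hochberg adjustment ran over all tested genes, with calls under 0.05, and SE is the log2 fold change divided by the square root of F. Background is the share of all tested genes called in the same direction, unless another set is named.

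The stored transcripts and gene lists were chosen with earlier results of these data known. Named genes include, from each gene list, up to 4 stored transcripts of highest stage 6 level. These lists are not the roles, and stored transcripts in no list, such as vrk1, virma and fam126a, were passed over there. Also named are the 8 with the largest wildtype fall and the 5 largest called changes either way, among genes with a symbol. Locus-number genes were thus passed over there. Where fewer than 3 were called, the 3 smallest p were taken instead. Genes nearest the limits are named too. Values of pim3 and vps26b were named after being seen. All 66 matched RefSeq (UCB_Xtro_10.0) by symbol and span, and bod1 overlaps ptpdc1 on the same strand. Alternatives were DESeq2 1.42.0, other scalings and filters, single-stage fits, a replicate block, other limits and leaving out each library.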

Additional observations from a re-analysis of the deposited data

Results flagged for a closer look

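The log2 fold change of E2f1 over deltaDBD mRNA differed between stages 8 and 7 in 58 of the 66 stored transcripts by the test of that difference (edgeR quasi-likelihood, adjusted p under 0.05), beside 23.5% of all genes at 20 CPM or more at stage 6. The 5 largest changes among genes with a symbol were −1.20 for selenop1, −1.16 for ifrd1, −1.13 for plbd2, −1.12 for rab11a and −1.01 for iqgap3. The effect of the MO at stage 7 differed between embryos with and without Cdkn1a mRNA in 8 of the 66, by the test of that interaction, beside 0.675% of all tested genes. Leaving out 1 library gave 3 to 8. The 5 largest called differences among genes with a symbol were 0.79 for ifrd1, 0.64 for ddi2, 0.55 for aurka, 0.49 for bod1 and 0.32 for iqgap3. Of these 5, only the call of ifrd1 held without any 1 library. Also called were zfp36l2.2, at 0.25 (edgeR adjusted p = 0.00327), and the locus-number genes LOC100496572, at 0.49 (0.000116), and LOC100491633, at 0.25 (0.045). They were named here after their values were seen, and whether their calls held without any 1 library is not given here.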

How the results depend on the processing

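Of 1766 alternative values for 143 named gene results, 1645 were counted as unchanged, 113 lost the call and 8 gained it. With either value called, 0 changed sign. A change of sign with neither value called was counted as unchanged, and alternatives with no adjusted p were left out. Leaving out 1 library at a time, counts of called stored transcripts at stage 7 ran from 58 to 59 for MO over wildtype, 63 to 66 for E2f1 over deltaDBD mRNA, 63 to 65 for E2f1 mRNA over the MO, 26 to 32 for E2f1 mRNA over wildtype, 12 to 24 for Cdkn1a mRNA over wildtype, 20 to 24 for the MO with Cdkn1a mRNA over Cdkn1a mRNA, and 3 to 8 for the interaction. At stage 8 they ran from 8 to 30 for E2f1 mRNA over the MO, 1 to 19 for deltaDBD mRNA over the MO, 0 to 16 for the MO with Cdkn1a mRNA over the MO, and 11 to 19 over Cdkn1a mRNA. Between stages they ran from 64 to 65 with E2f1 mRNA, 11 to 31 with the MO, 5 to 12 with Cdkn1a mRNA, 2 to 3 with deltaDBD mRNA and 1 to 2 with the MO and Cdkn1a mRNA. The change of the E2f1 effect gave 53 to 56, and that of the Cdkn1a effect 0 to 17. Where 1 library was left in a group, it was assumed to vary like the others.

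With no count filter, the count was 5 for MO with Cdkn1a mRNA over the MO at stage 7, 5 for E2f1 over deltaDBD mRNA at stage 8, 7 for deltaDBD mRNA over the MO at stage 8, and 8 for the stage step with MO and Cdkn1a mRNA. With libraries of the compared stages alone, these counts moved: at stage 7 to 1 for deltaDBD mRNA over the MO, 10 for MO with Cdkn1a mRNA over the MO and 30 for the interaction; at stage 8 to 10 for E2f1 mRNA over the MO, 1 for deltaDBD mRNA over the MO, 3 for MO with Cdkn1a mRNA over the MO and 12 over Cdkn1a mRNA. The count for deltaDBD mRNA over the MO at stage 8 was also 1 with median-of-ratios factors, library totals, genes at 20 CPM or more alone, and DESeq2. The cause was not tested, and the shares of all tested genes called in these other fits are not given here.

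Replicate numbers do not pair the libraries: over 78 pairs of groups, deviations of same-numbered libraries had correlations of −0.125 to 0.103 (median 0.014). With a replicate block the count for MO with Cdkn1a mRNA over the MO at stage 7 was 2, and other counts stayed within 1.5 times. DESeq2 gave no adjusted p for 14 stored transcripts in Cdkn1a mRNA over wildtype at stage 7 and 15 in the stage step of the MO. The number of genes chosen depends on scaling: with TMM-scaled CPM in the rule, 155 genes met it, including all 66, and of the 155, 132 fell in MO embryos and 152 rose with E2f1 over deltaDBD mRNA. Limits of 40 and 60% left gave 22 and 164 genes. Without 1 wildtype library, 58 to 72 genes met the rule.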
